A study of Homo sapiens with 14 samples.

Results

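The genes described here are 29 enzymes, regulators and carriers of cholesterol synthesis and of its control by the sterol regulatory element-binding proteins (SREBPs). They were chosen by symbol for their place in the pathway, with earlier results of these data known. All 29 were present among the 26171 entries of the K562 table and the 19196 genes of the SIGM5 table, and all 29 passed the filter on low values in both lines. Polyadenylated RNA was sequenced from 7 groups, each of 2 libraries. The acute myeloid leukaemia line SIGM5 received the vehicle DMSO or 12.5 µM TETi76, an inhibitor of the TET dioxygenases, which oxidise methylated cytosine in DNA. K562, an erythroleukaemia line, was used as clone K01 (TET2+/+), given DMSO, 12.5 µM TETi76, 100 µM ascorbate or both agents, and as clone K18 (TET2-/-), given DMSO. Treatment lasted 24 h in serum-containing medium in every group. Each TET2 genotype was 1 clone, so genotype and clone cannot be told apart. The labels number the replicates without saying whether they were separate cultures, so the p-values reflect differences among 2 libraries a group and may capture technical spread alone.

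Cells build cholesterol from acetyl-CoA through mevalonate, isoprenoid diphosphates, squalene and lanosterol. The SREBP transcription factors, encoded by SREBF1 and SREBF2, are made as membrane-bound precursors in the endoplasmic reticulum. When membrane sterol is low, SCAP escorts them to the Golgi, where the proteases MBTPS1 and MBTPS2 release the part that enters the nucleus and switches on the genes of sterol synthesis. When sterol is plentiful, INSIG1 and INSIG2 hold SCAP back, while liver X receptors induce genes of sterol disposal such as MYLIP, a ubiquitin ligase that lowers lipoprotein receptors.

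Promoters were read because the synthesis genes moved together, and 7 genes on which the results turn are shown. Each line holds the 250 bases before the RefSeq start (GRCh38.p14), 5′ to 3′ on the gene's strand. Capitals mark matches to TCACNCCAC, a form of the sterol regulatory element that SREBPs are known to bind. They also mark CCAAT, the letters bound by NF-Y (ATTGG on the other strand). SREBF2 lies at chr22:41832855-41833104 (+), SREBF1 at chr17:17836987-17837236 (-), HMGCS1 at chr5:43313413-43313662 (-), FDPS at chr1:155308616-155308865 (+), LSS at chr21:46228775-46229024 (-), INSIG1 at chr7:155297628-155297877 (+) and MYLIP at chr6:16128836-16129085 (+).
SREBF2: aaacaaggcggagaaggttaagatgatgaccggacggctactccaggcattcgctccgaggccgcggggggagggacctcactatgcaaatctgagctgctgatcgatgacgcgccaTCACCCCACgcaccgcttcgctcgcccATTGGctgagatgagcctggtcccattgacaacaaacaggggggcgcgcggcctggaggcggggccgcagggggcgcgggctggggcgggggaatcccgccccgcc
SREBF1: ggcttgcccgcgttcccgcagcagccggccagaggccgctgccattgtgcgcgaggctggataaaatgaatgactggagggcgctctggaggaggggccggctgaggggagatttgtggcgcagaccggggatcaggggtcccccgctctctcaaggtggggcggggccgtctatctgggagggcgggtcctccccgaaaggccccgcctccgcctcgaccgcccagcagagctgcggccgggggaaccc
HMGCS1: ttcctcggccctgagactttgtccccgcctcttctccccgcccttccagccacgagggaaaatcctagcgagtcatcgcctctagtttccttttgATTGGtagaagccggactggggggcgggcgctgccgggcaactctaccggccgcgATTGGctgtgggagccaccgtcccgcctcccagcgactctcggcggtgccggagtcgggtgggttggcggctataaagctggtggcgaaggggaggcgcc
FDPS: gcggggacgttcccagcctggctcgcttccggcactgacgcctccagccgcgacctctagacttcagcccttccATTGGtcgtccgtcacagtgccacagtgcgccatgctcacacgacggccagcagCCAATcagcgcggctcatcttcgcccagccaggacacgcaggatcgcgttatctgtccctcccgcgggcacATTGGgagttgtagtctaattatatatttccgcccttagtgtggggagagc
LSS: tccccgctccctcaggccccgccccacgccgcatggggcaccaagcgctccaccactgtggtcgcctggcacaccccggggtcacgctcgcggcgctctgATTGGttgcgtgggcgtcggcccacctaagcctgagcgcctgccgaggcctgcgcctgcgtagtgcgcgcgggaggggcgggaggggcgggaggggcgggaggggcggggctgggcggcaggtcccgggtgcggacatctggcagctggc
INSIG1: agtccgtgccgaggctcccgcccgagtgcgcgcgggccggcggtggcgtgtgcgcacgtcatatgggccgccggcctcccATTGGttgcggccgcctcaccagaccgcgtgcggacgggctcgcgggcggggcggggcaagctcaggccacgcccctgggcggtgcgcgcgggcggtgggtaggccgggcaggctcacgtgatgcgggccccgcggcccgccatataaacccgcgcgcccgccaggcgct
MYLIP: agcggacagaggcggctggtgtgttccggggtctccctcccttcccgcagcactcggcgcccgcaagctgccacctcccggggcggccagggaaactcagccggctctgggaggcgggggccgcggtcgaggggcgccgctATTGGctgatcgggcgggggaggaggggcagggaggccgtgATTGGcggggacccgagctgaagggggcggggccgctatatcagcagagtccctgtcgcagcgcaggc

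Only SREBF2 held this exact form of the sterol element among these 7 windows, starting 133 bases before its start. SREBF1 held no match to either motif. In windows of 250 bases before to 50 after the start, searched on both strands, 26 of the 29 genes had an entry. The bases just after the start were found in a GENCODE v29 transcript of the gene for 17 of these 26. INSIG1 and MYLIP were among those not found, so distances from their starts are less certain. The exact form of the sterol element was found in 1 of the 26, against 1.15% of 27305 promoters. CCAAT was found in 16 (61.5%), against 35.7% of all promoters and 37.2% of 9159 matched genes tested in K562. GGGCGG, the letters of SP1, was found in 21 (80.8%), against 44.6% and 70.2%. The E-box CACGTG was found in 4 (15.4%), against 7.43% and 10.4%. Of the 15 genes with an entry that TETi76 lowered in K01, 11 held CCAAT, as did 5 of the other 11. Among 96 matches in the 26 genes, 0 pairs of different motifs shared a base. A match is a description of letters and not of binding. A missing match does not mean a missing sterol element, since variant forms, other starts and more distant bases were not searched.

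Depth and identity of the libraries were as follows. SIGM5 totals ran from 18893636 to 23639198 counts, and the value of 1 read put the K562 libraries at roughly 4.66 to 8.89 M reads (M, mega). In K562 all 10 erythroid markers stood at 1 FPKM or more in each library, and in SIGM5 all 10 myelomonocytic markers stood at 1 CPM or more (counts scaled to library size). Some markers of other cells reached that level as well. In K562 these included 3 of 10 myelomonocytic markers (SPI1, CD33 and LYZ), CD3D and EPCAM (means of 13.4 and 45.6 FPKM in K01 DMSO for the last pair). In SIGM5 they included 2 of 10 erythroid markers (EPOR and TFRC) and PECAM1 (mean of 26.7 CPM in DMSO). Replicates correlated at 0.976 or higher in K562 and at 0.9938 or higher in SIGM5 (Pearson, log2 scale). TET2 transcript in DMSO was 1.99 and 2.4 FPKM in K01 and 3.31 and 2.95 FPKM in K18, so it was not lower in the TET2-/- libraries, and a transcript level does not test a disrupted gene. These are bulk samples, in which fewer cells of a kind and less RNA per cell cannot be told apart.

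In untreated K01 the levels per gene length (FPKM, mean of 2 DMSO libraries) were led by FDFT1, FDPS and ACAT2. FDFT1, squalene synthase, stood at 157 and 156 FPKM in the single libraries, FDPS, farnesyl diphosphate synthase, at 148 and 147, and ACAT2, the cytosolic acetoacetyl-CoA thiolase, at 126 and 140. The sterol isomerase EBP followed at 107 and 102. The transcripts of the transcription factors were of middle rank, with SREBF2 at 51.2 and 47.7 and SREBF1 at 32.3 and 31.5. The lowest were SC5D, a late desaturase, at 3.99 and 4.71, and INSIG2 at 3.45 and 2.64. FDFT1 and FDPS did not overlap, whereas IDI1 (70.5 and 67.8) and SQLE (67.5 and 68.2) did, and the values of HMGCS1 (49.2 and 48.9) and CYP51A1 (48.4 and 48.8) lay between those of SREBF2.

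**Figure D1:**
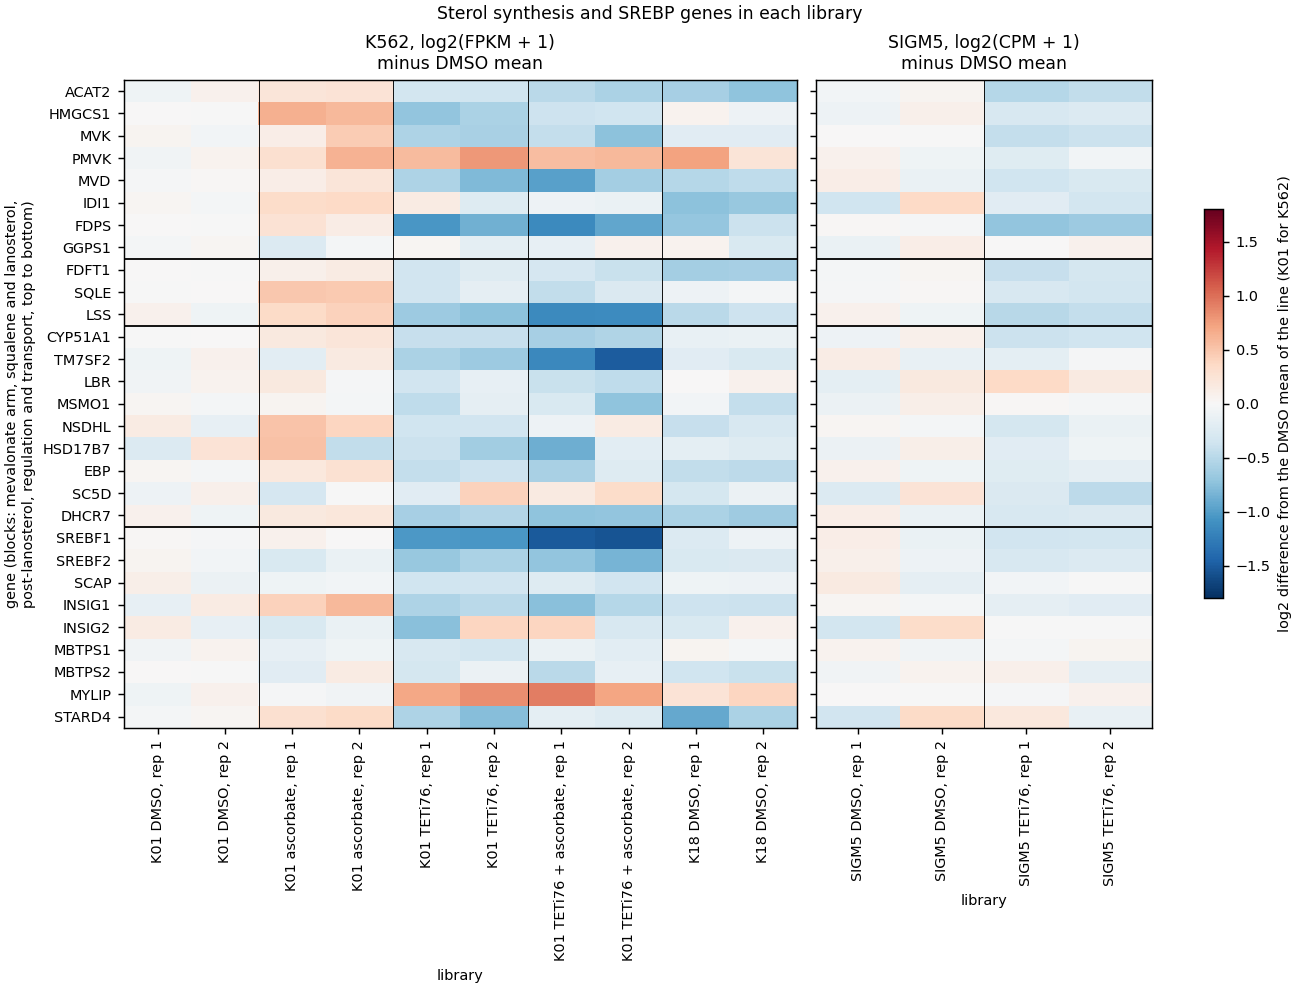
Log2 difference of each of the 29 genes (vertical axis, in pathway order) from the DMSO mean of its line, in each library (horizontal axis). K562 is on log2(FPKM + 1), relative to K01 DMSO, and SIGM5 on log2(CPM + 1). Blue is lower and red is higher. The columns of K01 given TETi76 with ascorbate are the bluest at SREBF1, TM7SF2 and LSS, and MYLIP is red in all 4 TETi76 libraries of K01.

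TETi76 lowered most of the pathway in K01. Of the 29 genes, 17 fell and 2 rose against DMSO (limma, adjusted p under 0.05), a call made downward for 13.7%, upward for 9.6% and either way for 23.3% of the 12537 genes tested. With ascorbate in both arms, in 4 other libraries, 19 fell and 1 rose, against 17.8% and 12.8% of all genes (30.7% either way). The median log2 change of the 29 was -0.35 without ascorbate and -0.58 with it, while that of all genes tested was -0.01 in both. SREBF1 and FDPS fell most without ascorbate, and SREBF1, LSS and TM7SF2 fell most with it. The 2 comparisons share no library: 15 genes fell in both, which is 88.2% of the first list and 78.9% of the second, and MYLIP rose in both. The share of all genes that fell in both was not counted. Across the 29 genes the 2 sets of changes had a Pearson r of 0.85 and a Spearman rho of 0.85, with 27 of 29 of the same sign, beside an r of 0.68 and 74.6% over all genes. The genes of a comparison share its libraries and are not independent. The test of the difference between the 2 TETi76 effects called 1 of the 29 genes, LSS, lower with ascorbate, against 0.351% of all genes called lower, 0.279% higher and 0.63% either way.

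**Figure D2:**
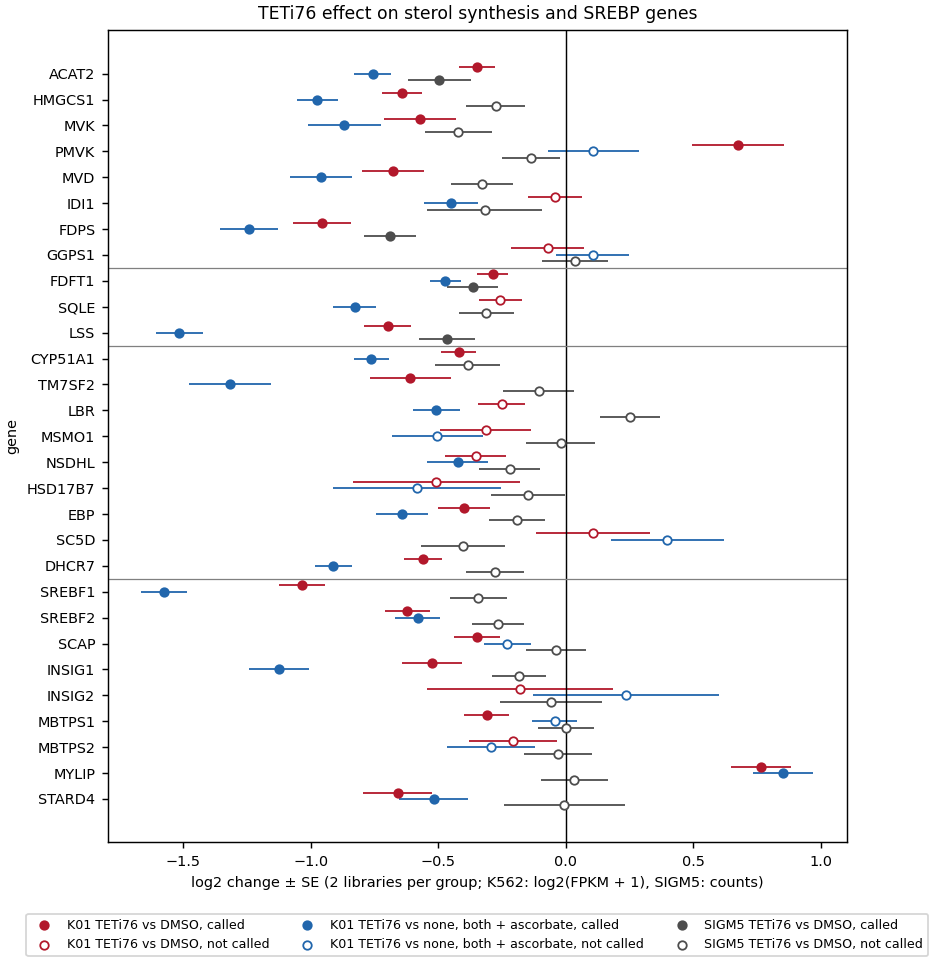
Log2 change under TETi76 (horizontal axis) for each gene (vertical axis) in K01, in K01 with ascorbate in both arms and in SIGM5. Points are fitted changes, filled where called at an adjusted p under 0.05, and bars are ± SE. In SIGM5 FDPS stands at -0.69, the lowest of the 29, and in K01 with ascorbate SREBF1 (-1.57) and LSS (-1.52) are lowest.

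In the mevalonate arm, 5 of 8 genes fell and 1 rose under TETi76 alone, and 6 of 8 fell with ascorbate in both arms. HMGCS1, which makes the precursor of mevalonate, stood at 49.2 and 48.9 FPKM in DMSO and 29.7 and 32.6 under TETi76 (log2 -0.64, SE 0.08, adjusted p = 0.000595). With ascorbate alone it stood at 76.6 and 73.8 FPKM and with both agents at 37.7 and 37.9 (log2 -0.97, SE 0.08, adjusted p = 3.49e-05). Both TETi76 groups lay below their controls without overlap. FDPS, which joins isoprenoid units into farnesyl diphosphate, stood at 148 and 147 FPKM in DMSO, 70.5 and 80.7 under TETi76 (log2 -0.96, SE 0.11, adjusted p = 0.000453), 177 and 162 with ascorbate and 66.1 and 76.5 with both (log2 -1.24, SE 0.11, adjusted p = 6.97e-05). FDPS under TETi76 was thus at like levels with and without ascorbate, far below either control. FDPS overlaps RUSC1-AS1 on the other strand and has 8 named pseudogenes, whose reads the authors' counting could share with it.

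MVD, mevalonate diphosphate decarboxylase, stood at 52.4 and 53.5 FPKM in DMSO and 35.6 and 30.2 under TETi76 (log2 -0.68, SE 0.12, adjusted p = 0.00427). With ascorbate it stood at 57.7 and 61.5 FPKM and with both agents at 26.5 and 34.3 (log2 -0.96, adjusted p = 0.000456). MVK, mevalonate kinase, stood at 18 and 16.6 FPKM in DMSO, 11.4 and 11.2 under TETi76, 18.8 and 24.2 with ascorbate and 12.6 and 10 with both. Both genes were lower in all 4 TETi76 libraries than in the 4 others, and the fall of MVK was -0.57 and -0.87 on the log2 scale (adjusted p = 0.0186 and 0.00183). ACAT2, whose exons overlap SOD2 and TCP1 on the other strand, stood at 126 and 140 FPKM in DMSO and 105 and 104 under TETi76. It stood at 155 and 157 with ascorbate and 94.7 and 89.4 with both, falls of -0.35 and -0.76 (adjusted p = 0.00846 and 8.68e-05). PMVK, the kinase after MVK, went the other way without ascorbate, from 7.29 and 7.96 FPKM to 11.8 and 13.8 (log2 0.68, SE 0.18, adjusted p = 0.0242). With ascorbate PMVK stood at 9.56 and 12.3 FPKM and with both agents at 11.7 and 11.9, which overlap (log2 0.11, adjusted p = 0.691). IDI1, the isomerase of isoprenoid units, stood at 70.5 and 67.8 FPKM in DMSO and 76.5 and 59 under TETi76, which overlap, and it fell against ascorbate, from 87.6 and 88.7 to 64.8 and 63.6 (log2 -0.45, SE 0.11, adjusted p = 0.011). GGPS1, which leads to protein prenylation instead of sterol, ranged from 18.5 to 23.3 FPKM over the 8 K01 libraries and passed the test in neither comparison.

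At squalene and lanosterol, 2 of 3 genes fell under TETi76 and 3 of 3 with ascorbate in both arms. LSS, which closes the sterol rings to lanosterol, stood at 35.6 and 31.9 FPKM in DMSO, 21 and 19.8 under TETi76, 42.9 and 45.3 with ascorbate and 14.7 and 14.8 with both. The 4 groups of LSS did not overlap, and both agents together gave the lowest. The change under TETi76 was -0.70 (SE 0.09, adjusted p = 0.000794) and with ascorbate -1.52 (SE 0.09, adjusted p = 6.63e-06). SQLE, squalene epoxidase, stood at 67.5 and 68.2 FPKM in DMSO, 53 and 60.5 under TETi76, 95 and 94 with ascorbate and 49.6 and 56.2 with both. It missed the threshold without ascorbate (log2 -0.26, SE 0.08, adjusted p = 0.0572) and fell with it (log2 -0.83, adjusted p = 0.000131). FDFT1 stood at 157 and 156 FPKM in DMSO, 123 and 133 under TETi76, 167 and 173 with ascorbate and 127 and 118 with both, the smaller falls of -0.29 and -0.47 (adjusted p = 0.0088 and 0.000456).

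After lanosterol, 4 of 9 genes fell under TETi76 and 6 of 9 with ascorbate in both arms. DHCR7, the last reductase of a branch to cholesterol, stood at 82.8 and 74 FPKM in DMSO, 51.6 and 54.1 under TETi76, 88.4 and 90.7 with ascorbate and 47.1 and 47.3 with both (log2 -0.56 and -0.91, SE 0.07 for each, adjusted p = 0.000828 and 3.3e-05). CYP51A1, lanosterol demethylase, stood at 48.4 and 48.8 FPKM in DMSO, 36.1 and 36 under TETi76, 54.8 and 56.5 with ascorbate and 31.7 and 33.1 with both (log2 -0.42 and -0.76, adjusted p = 0.0024 and 5.99e-05). In each of these genes the 4 TETi76 libraries lay below the 4 others. TM7SF2, a sterol reductase, stood at 12.1 and 13.4 FPKM in DMSO, 8.25 and 7.74 under TETi76, 11 and 14.3 with ascorbate and 5.15 and 3.83 with both (log2 -0.61 and -1.32, SE 0.16 for each, adjusted p = 0.0242 and 0.000356). It overlaps VPS51 on the same strand, so reads of the 2 genes may not be separable. EBP stood at 107 and 102 FPKM in DMSO, 77.5 and 80.6 under TETi76, 119 and 127 with ascorbate and 69.6 and 88.9 with both (log2 -0.40 and -0.64, adjusted p = 0.0217 and 0.00159). LBR, a sterol reductase that also anchors the nuclear lamina, stood at 82.6 and 90.5 FPKM in DMSO, 67.7 and 77.8 under TETi76 (adjusted p = 0.0798), 97.7 and 85.5 with ascorbate and 65.1 and 62.9 with both (log2 -0.51, SE 0.09, adjusted p = 0.00314). NSDHL, a sterol dehydrogenase, stood at 32.5 and 26.5 FPKM in DMSO, 22.6 and 22.9 under TETi76, 42.2 and 38.6 with ascorbate and 27.4 and 32.5 with both. It fell with ascorbate in both arms (log2 -0.42, adjusted p = 0.026) and missed the threshold without it (log2 -0.35, adjusted p = 0.0636). MSMO1, HSD17B7 and SC5D, whose levels in the 8 K01 libraries ranged from 10.7 to 19, from 3.44 to 10.8 and from 3.35 to 6.12 FPKM, passed the test in neither.

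Among the 9 genes of regulation and transport, 6 fell and 1 rose under TETi76, and 4 fell and 1 rose with ascorbate in both arms. SREBF1 stood at 32.3 and 31.5 FPKM in DMSO, 15.1 and 15 under TETi76, 33.7 and 32 with ascorbate and 10.5 and 10.2 with both. TETi76 thus brought SREBF1 below every control library, and the level with both agents lay below that with TETi76 alone. The changes were -1.04 (SE 0.09, adjusted p = 6.32e-05) and -1.57 (SE 0.09, adjusted p = 4.21e-06). SREBF2 stood at 51.2 and 47.7 FPKM in DMSO, 30.6 and 33.1 under TETi76, 40.9 and 45.5 with ascorbate and 29.8 and 27.2 with both (log2 -0.62 and -0.58, SE 0.09 for each, adjusted p = 0.00127 for each). The falls of SREBF2 were of like size with and without ascorbate. INSIG1, itself a target of SREBPs, stood at 51 and 63.4 FPKM in DMSO, 38.2 and 40.4 under TETi76, 75.9 and 85.5 with ascorbate and 33.5 and 39.5 with both (log2 -0.52 and -1.13, SE 0.12 for each, adjusted p = 0.0123 and 0.000149). STARD4, a carrier of sterol between membranes, stood at 14.6 and 15.3 FPKM in DMSO, 9.86 and 8.41 under TETi76, 18.4 and 19.3 with ascorbate and 13.1 and 12.6 with both (log2 -0.66 and -0.52, adjusted p = 0.00807 and 0.0181).

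MYLIP, the ligase induced by liver X receptors, ran against the rest. It stood at 11.4 and 12.8 FPKM in DMSO, 20.2 and 22.5 under TETi76, 11.9 and 11.6 with ascorbate and 23.9 and 20.4 with both (log2 0.77 and 0.85, SE 0.12 for each, adjusted p = 0.0018 and 0.000682). The 4 TETi76 libraries lay above the 4 others. SCAP stood at 35.4 and 30.7 FPKM in DMSO, 25.6 and 25.8 under TETi76, 31.1 and 32 with ascorbate and 27.9 and 25.6 with both, and passed the test without ascorbate but not with it (log2 -0.35 and -0.23, adjusted p = 0.0235 and 0.0884). MBTPS1 likewise fell without ascorbate, from 24.7 and 27 to 20.9 and 20.3 FPKM (log2 -0.31, adjusted p = 0.0333), and stood at 23.3 and 24.3 with ascorbate and 23.7 and 22.4 with both (adjusted p = 0.751). MBTPS2 stood at 7.11 and 7.01 FPKM in DMSO, 5.49 and 6.51 under TETi76, 6 and 7.95 with ascorbate and 4.75 and 6.27 with both. INSIG2 stood at 3.45 and 2.64 FPKM in DMSO, 1.39 and 4.28 under TETi76, 2.32 and 2.72 with ascorbate and 4.23 and 2.28 with both. Neither gene passed a test, and INSIG2 overlapped between TETi76 and control libraries in both comparisons.

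**Figure D3:**
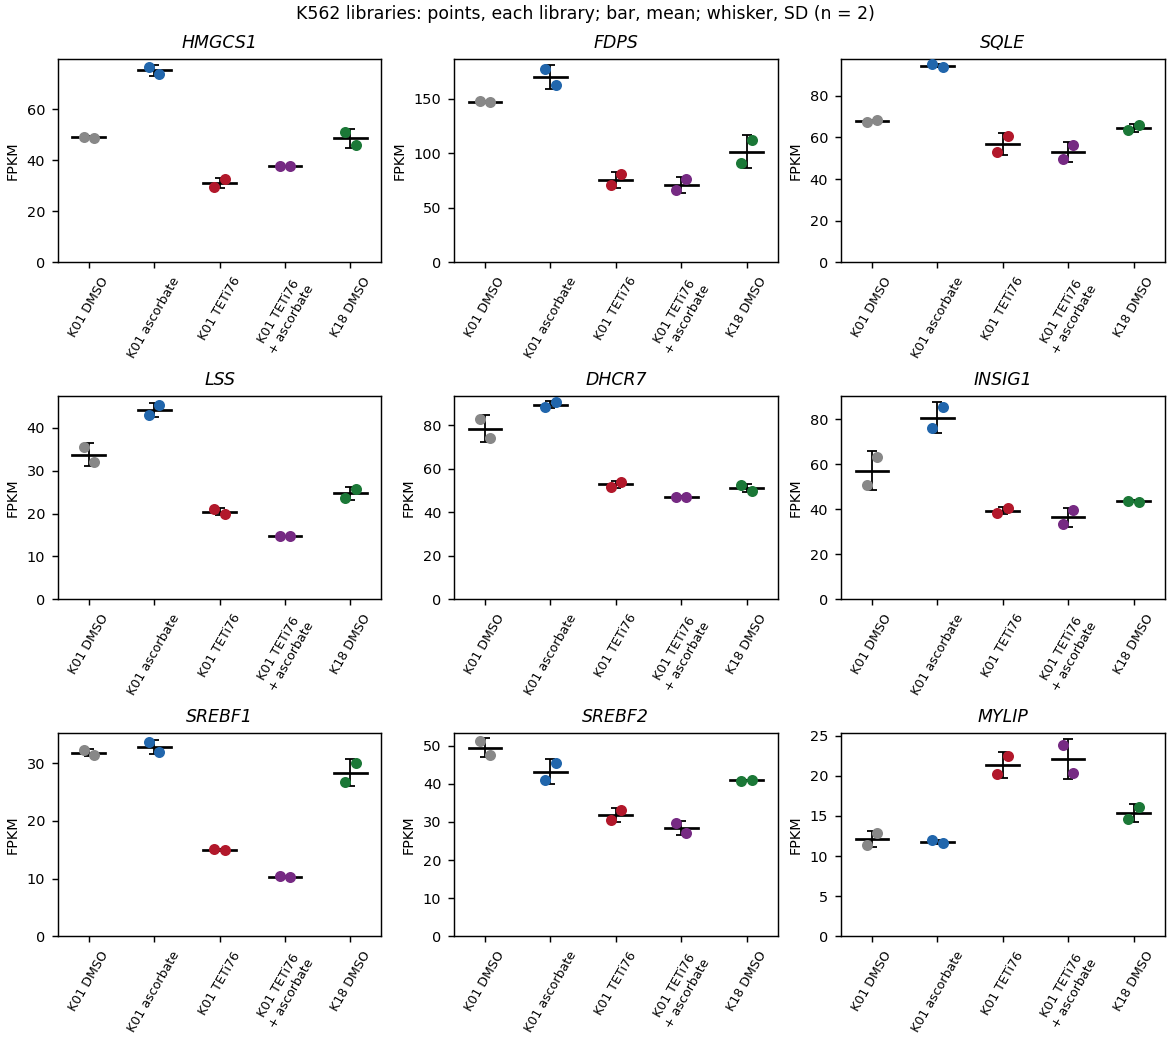
FPKM (vertical axis, from 0) of HMGCS1, FDPS, SQLE, LSS, DHCR7, INSIG1, SREBF1, SREBF2 and MYLIP in each K562 library (points) by group (horizontal axis), with the group mean as a bar and the SD as a whisker (n = 2). SREBF1 falls from about 32 FPKM in DMSO to 15 under TETi76 and 10 with both agents, while MYLIP stands above 20 in the 4 TETi76 libraries and below 13 in the other K01 libraries.

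Of the 19 genes called under TETi76 alone, 9 were called under each of 10 alternative settings: CYP51A1, DHCR7, FDPS, HMGCS1, LSS, MVD, MYLIP, SREBF1 and SREBF2. With 1 library left out, some of the 19 calls were lost. The log2 change of INSIG1 then ran from -0.68 to -0.37 and that of SCAP from -0.45 to -0.25. With ascorbate in both arms 17 of 20 were called under each of 10 settings, the exceptions being IDI1, NSDHL and STARD4. The summed erythroid markers, at 8280 to 9570 FPKM in K01 DMSO, stood at 7890 to 8250 under TETi76, 9660 to 10100 with ascorbate and 6730 to 6960 with both. Globins made up most of these sums. Of the 10 markers 5 fell and 1 rose under TETi76, beside 13.7% and 9.6% of all genes. With ascorbate in both arms 7 fell and 0 rose, beside 17.8% and 12.8%. The erythroid factor KLF1 fell in both (log2 -1.22 and -2.15). Under TETi76 alone the means of HBG1 (1131 to 1232 FPKM), HBG2, TAL1 and TFRC (87.3 to 101) were above DMSO, and the other means were below. Of 10 myelomonocytic markers 1 rose under TETi76, 2 rose with ascorbate in both arms and 0 fell. The part of these markers in the results was not tested.

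Neighbouring pathways were read from lists of other genes. Among 12 genes that use isoprenoids for protein prenylation, dolichol and ubiquinone, 0 were called under TETi76 in K01. With ascorbate in both arms 1 rose (CHM, log2 1.01) and 1 fell (PDSS1, log2 -0.57). Among 10 tested genes of sterol handling, 2 rose and 1 fell in each comparison, a share of 30% beside 23.3% and 30.7% of all genes, so near the background. Without ascorbate these were NR1H3, the liver X receptor alpha (log2 0.81, adjusted p = 0.0292), STARD3 (0.37) and VPS4A (-0.36). With it they were NR1H3 (log2 1.06, adjusted p = 0.00699), NPC2 (0.76) and GRAMD1A (-0.63). NR1H3 stood at 4.85 and 3.02 FPKM in DMSO and 6.61 and 8.51 under TETi76, without overlap, but its call without ascorbate was lost in 4 of 10 settings, with a log2 change of 0.54 to 1.08 when 1 library was left out. Of 17 further genes linked to SREBP or sterol control, 4 rose and 1 fell without ascorbate (29.4%, beside 23.3% of all genes). With it 7 rose and 1 fell (47.1%, beside 30.7%). The vesicle coat gene SEC24D stood at log2 0.79 and 1.23 and UFD1L at 0.64 and 0.79, all called. Of 13 fatty acid and acetyl-CoA enzymes, 10 fell and 1 rose without ascorbate (84.6%), and those that fell included FADS1 (log2 -1.61), SCD (-1.02) and FASN (-1.01).

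In SIGM5 25 of the 29 genes had a fitted change below 0 under TETi76, and fewer passed the test. There 4 fell (edgeR quasi-likelihood test) and 0 rose, a call made downward for 1.54% of 11340 genes, upward for 2.58% and either way for 4.13%. The median log2 change was -0.22, against 0.00 over all genes tested, and 14 of the 29 had an unadjusted p under 0.05. The share of all genes under that unadjusted cut was not counted, and the shares above rest on adjusted p. Of the 10 myelomonocytic markers, 3 rose in the same comparison (ITGAM, log2 1.36; CSF1R, 0.87; CD14, 0.80) and 3 fell (CTSG, -1.28; ELANE, -0.47; MPO, -0.36), and their summed level was 22000 to 22100 CPM in DMSO and 18900 to 19500 under TETi76. Their part in these results was not tested. FDPS stood at 305 and 298 CPM in DMSO and 183 and 191 under TETi76 (log2 -0.69, SE 0.10, adjusted p = 0.000161). LSS stood at 146 and 132 CPM and then 98.5 and 103 (log2 -0.47, SE 0.11, adjusted p = 0.0148). Both ranges were clear of each other. ACAT2 stood at 41.1 and 44.3 CPM and then 29.5 and 31.1 (log2 -0.50, SE 0.12, adjusted p = 0.0218), and FDFT1 at 308 and 323 and then 236 and 254 (log2 -0.36, SE 0.10, adjusted p = 0.0423). These 4 genes also fell in both TETi76 comparisons of K01, where 17 and 19 of the 29 fell. The overlap over all genes was not counted. Leaving out DMSO replicate 1 gave 7 calls, DMSO replicate 2 gave 10 and either TETi76 replicate gave 1, and FDPS alone was called under each of 8 alternative settings.

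The other synthesis genes that TETi76 lowered in K01 missed the threshold in SIGM5. HMGCS1 stood at 62.5 and 70.6 CPM in DMSO and 54.4 and 55.8 under TETi76 (log2 -0.27, adjusted p = 0.222), and MVK at 27.3 and 27.1 and then 20 and 20.6 (log2 -0.42, adjusted p = 0.0734). MVD stood at 60.9 and 51.9 CPM and then 43.6 and 46.3 (log2 -0.33), and SQLE at 134 and 138 and then 111 and 108 (log2 -0.31, adjusted p = 0.11). In each of these 4 genes both TETi76 libraries lay below both DMSO libraries. So did CYP51A1 (34.2 and 39.2, then 27.9 and 28.4 CPM), DHCR7 (115 and 96.7, then 86.5 and 88.1) and EBP (118 and 105, then 95.6 and 99.2). With 2 libraries a group such an order can arise without any change, and its share over all genes was not counted. TM7SF2 (27.1 and 22.2, then 21.6 and 24.2 CPM), IDI1 (49.2 and 81.2, then 54.7 and 50.1) and STARD4 (31.1 and 50.8, then 45.6 and 36.2) overlapped between groups. The DMSO replicates of IDI1 and STARD4 were themselves far apart.

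The regulators passed no test in SIGM5. SREBF1 stood at 170 and 143 CPM in DMSO and 122 and 124 under TETi76 (log2 -0.34, SE 0.11, adjusted p = 0.0912), and SREBF2 at 400 and 351 and then 307 and 317 (log2 -0.27, adjusted p = 0.167). In both genes the TETi76 libraries were below the DMSO libraries, an order that 2 libraries a group can give without any change. INSIG1 stood at 130 and 125 CPM and then 113 and 111, SCAP at 142 and 112 and then 122 and 125, and MYLIP at 23.1 and 23 and then 22.7 and 24.5 (log2 0.03, adjusted p = 0.944). INSIG2 (8.91 and 14.7, then 11.5 and 11.4 CPM), MBTPS1 (102 and 93, then 94.7 and 100) and MBTPS2 (29 and 31.8, then 32.5 and 27) overlapped between groups. None of the 9 genes after lanosterol was called, with log2 changes from -0.40 for SC5D to 0.25 for LBR. Of the other lists, 0 of 11 prenyl genes and 1 of 13 sterol handling genes (LIPA, log2 0.44) were called. Across the 29 genes the SIGM5 changes shared their sign with K01 in 24, at an r of 0.41 and a rho of 0.41, beside an r of 0.27 and 60% over all genes. With ascorbate in both arms of K01 the number was 24 too, at an r of 0.51 and a rho of 0.53.

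The TETi76 change differed between the lines in 4 of the 29 genes, 2 of them higher and 2 lower in K01, from separately fitted changes. Over the 9742 genes tested in both lines, 12% differed, 4.91% higher and 7.12% lower. The share of the 29 was 13.8%, so near that of all genes. SREBF1 fell more in K01 (difference -0.69, SE 0.14, adjusted p = 0.0013). MYLIP was raised in K01 and not called in SIGM5 (difference 0.73, SE 0.18, adjusted p = 0.0056), and so was PMVK (difference 0.81, SE 0.21, adjusted p = 0.0175). LBR stood at 451 and 581 CPM in SIGM5 DMSO and 658 and 571 under TETi76, and its difference was -0.50 (SE 0.15, adjusted p = 0.0261), although neither line's own change was called. PMVK stood at 96.8 and 87.4 CPM in SIGM5 DMSO and 78.8 and 88.8 under TETi76, which overlap. FDPS, LSS, FDFT1 and ACAT2 did not pass the test of a difference (adjusted p from 0.276 to 0.733), at differences of -0.27 (SE 0.15), -0.23 (SE 0.14), 0.08 and 0.15. Leaving out K01 DMSO replicate 2 gave 2 calls, SIGM5 DMSO replicate 1 gave 8 and SIGM5 TETi76 replicate 1 gave 1, and SREBF1 alone was called under each of 12 settings. The scales differ between the tables, FPKM with 1 added against counts.

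The TET2-/- clone K18 had less RNA of several synthesis genes than K01, both in DMSO. Of the 29, 9 were lower and 0 higher (limma), against 8.21% and 6.84% of all genes tested (15.1% either way), and the median log2 difference was -0.24 against 0.00. IDI1 stood at 41.2 and 42.7 FPKM in K18 and 70.5 and 67.8 in K01 (log2 -0.71, SE 0.11, adjusted p = 0.00237). FDFT1 stood at 103 and 103 FPKM against 157 and 156 (log2 -0.60, SE 0.06, adjusted p = 0.000269), and ACAT2 at 87.9 and 80 against 126 and 140 (log2 -0.66, SE 0.07, adjusted p = 0.000422). In these genes the clones were well apart. DHCR7 stood at 52.5 and 50.1 FPKM against 82.8 and 74 (log2 -0.60, SE 0.07, adjusted p = 0.000778). STARD4 stood at 7.43 and 9.77 FPKM against 14.6 and 15.3 (log2 -0.74, SE 0.14, adjusted p = 0.00666). FDPS (90.7 and 112 FPKM in K18), LSS (23.7 and 25.8), MVD (36.8 and 38.5) and EBP (76.5 and 74.9) were lower as well, at log2 -0.54, -0.43, -0.48 and -0.46. All of these ranges lay below those of K01. MVK (14.8 and 14.8 FPKM in K18), SQLE (63.3 and 66.1), CYP51A1 (44.3 and 44.5) and TM7SF2 (10.9 and 10.3) also stood below both K01 libraries without passing the test (adjusted p from 0.257 to 0.662). How many of all genes stood apart in this way was not counted. LBR, at 86.7 and 91 FPKM, overlapped K01.

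The transcription factors and their partners did not pass the test between the clones. SREBF1 stood at 26.7 and 30 FPKM in K18 (log2 -0.17, adjusted p = 0.261), SREBF2 at 40.8 and 40.9 (log2 -0.27, adjusted p = 0.0752), and INSIG1 at 43.9 and 43.4 (log2 -0.37, adjusted p = 0.0643). HMGCS1, at 51.1 and 46, overlapped K01 (log2 -0.02, adjusted p = 0.922). SCAP (31.2 and 31), MBTPS1 (26.7 and 25.1), INSIG2 (2.32 and 3.24) and MBTPS2 (5.3 and 5.08 FPKM) were not called. MYLIP stood at 14.6 and 16.2 FPKM, above K01 without passing the test (log2 0.32, adjusted p = 0.103), and PMVK at 13.2 and 9.09 (log2 0.47, adjusted p = 0.111). The comparison with TETi76 in K01 uses the same K01 DMSO libraries, so the values stand side by side only: SREBF1 at -0.17 in K18 and -1.04 under TETi76, IDI1 at -0.71 and -0.04, and HMGCS1 at -0.02 and -0.64. The TETi76 comparison within ascorbate shares no library with K18 against K01. All 9 genes lower in K18 fell there too, which is 47.4% of that list. Since 19 of the 29 fell there, a large overlap is likely, and the overlap over all genes was not counted. In sign, 24 of 29 were alike, at an r of 0.46 and a rho of 0.33, beside an r of 0.12 and 56.6% over all genes.

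Between the clones, leaving out K01 DMSO replicate 2 gave 5 calls and leaving out K18 replicate 1 gave 4, and ACAT2, DHCR7, FDFT1 and IDI1 were called under each of 10 alternative settings. The summed erythroid markers were 4390 to 4620 FPKM in K18, against 8280 to 9570 in K01 DMSO. Of these 10 markers 4 were lower in K18 and 1 higher, and their part in the difference was not tested. Among the neighbouring lists, 0 of 12 prenyl genes and 1 of 10 sterol handling genes were called, the latter NPC1, the lysosomal exporter of cholesterol (log2 -0.48, adjusted p = 0.0156), whose call was lost in 3 of 10 settings. Of the 17 genes linked to SREBP or sterol control 3 were higher and 1 lower (23.5%, beside 15.1% of all genes). The calls of SEC24B and SEC24D were lost in 7 and 6 of 10 settings. Of 13 fatty acid and acetyl-CoA enzymes 3 were lower (ACLY, ACSS2 and SCD) and 1 higher (30.8%).

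**Figure D4:**
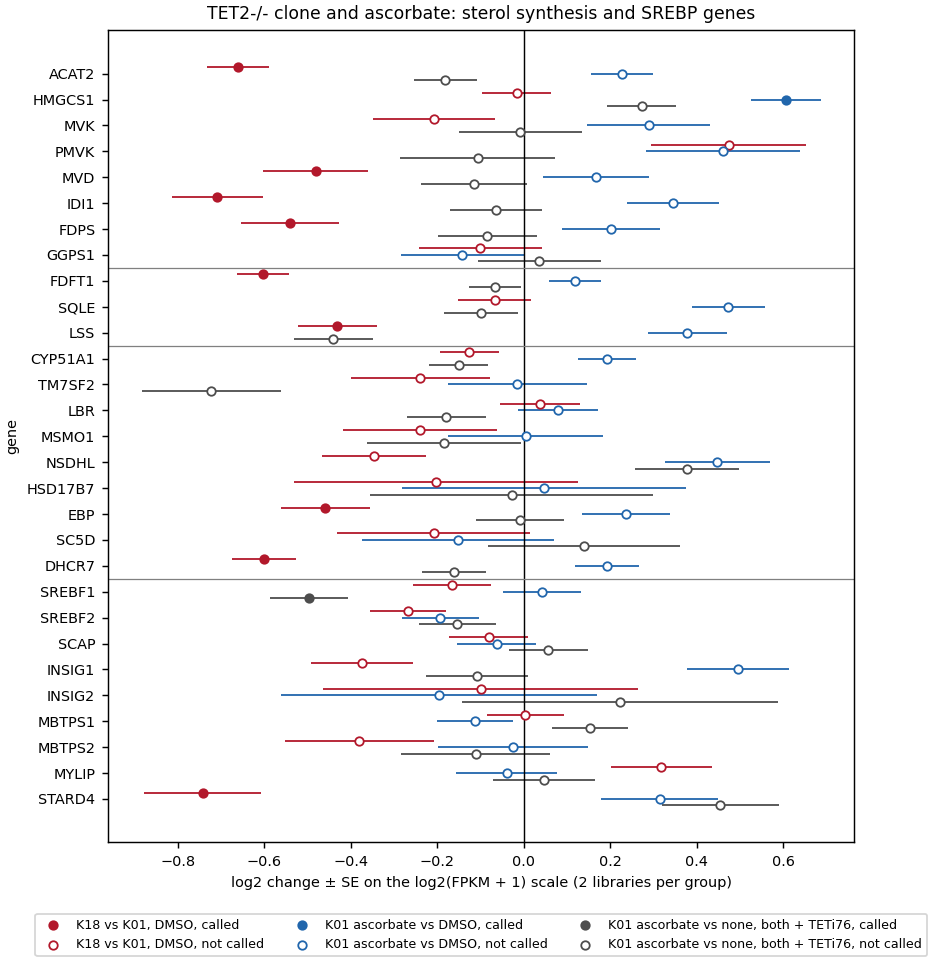
Log2 difference (horizontal axis) for each gene (vertical axis) between K18 and K01 in DMSO, for ascorbate against DMSO in K01 and for ascorbate added to TETi76. Points are fitted values on the log2(FPKM + 1) scale, filled where called at an adjusted p under 0.05, and bars are ± SE. HMGCS1 is the highest under ascorbate alone (0.61), and TM7SF2 (-0.72) and SREBF1 (-0.50) are the lowest for ascorbate added to TETi76.

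With ascorbate alone most of the pathway stood above DMSO in K01, short of the threshold. HMGCS1 rose, from 49.2 and 48.9 to 76.6 and 73.8 FPKM (log2 0.61, SE 0.08, adjusted p = 0.018), the only call among the 29, against 0.168% of all genes called higher, 0.311% lower and 0.479% either way. The median log2 change was 0.17 against 0.00 over all genes, 20 of the 29 were above 0, and 12 had an unadjusted p under 0.05. The share of all genes under that unadjusted cut was not counted, and the shares above rest on adjusted p. SQLE (67.5 and 68.2, then 95 and 94 FPKM) stood at log2 0.47 (adjusted p = 0.058), INSIG1 (51 and 63.4, then 75.9 and 85.5) at 0.50 (adjusted p = 0.145) and LSS at 0.38 (adjusted p = 0.154). In these 3 genes the ascorbate libraries lay above the DMSO libraries without overlap, an order whose share over all genes was not counted. SREBF1 stood at log2 0.04 and SREBF2 at -0.19, neither called. The HMGCS1 call was lost when any single library of the 2 groups was left out (adjusted p 0.109 to 0.155) and in a fit of the 2 groups alone (0.056).

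With ascorbate added to TETi76, 0 of the 29 genes were called higher. The median was -0.08 against 0.00, and SREBF1 was the only call of 29, from 15.1 and 15 to 10.5 and 10.2 FPKM (log2 -0.50, SE 0.09, adjusted p = 0.0492), against 0.487% of all genes called lower, 0.247% higher and 0.734% either way. TM7SF2 stood at log2 -0.72 (adjusted p = 0.0891), LSS at -0.44 (adjusted p = 0.0732), HMGCS1 at 0.27 (adjusted p = 0.163) and SQLE at -0.10 (adjusted p = 0.663). The test of the difference between the 2 ascorbate effects, which is also that between the 2 TETi76 effects, gave LSS at log2 -0.82 (SE 0.13, adjusted p = 0.0335). LSS was above DMSO with ascorbate alone and below TETi76 with both. SQLE followed at -0.57 (adjusted p = 0.0802), SREBF1 at -0.54 (adjusted p = 0.114) and INSIG1 at -0.60 (adjusted p = 0.174), and 21 of the 29 were below 0, with a median of -0.26 against 0.00. In that test 10 of the 29 had an unadjusted p under 0.05, and the share of all genes under that cut was not counted. The LSS call was lost when any single library of the 4 groups was left out (adjusted p 0.0627 to 0.123), and that of SREBF1 when any of its 4 libraries was (adjusted p 0.0977 to 0.195).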

How the data were processed

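The authors' deposited SIGM5 values were raw counts per gene, and their deposited K562 values were FPKM in a table named as counts. Per the submitters' processing notes, hg19, STAR, edgeR 3.24.3 and limma 3.38.3 were used; which made which table, and whether counting used strand, is not given in the sources used here. Of the 29 genes, 8 overlap a measured gene on the opposite strand, 3 one on the same strand, and 3 have named pseudogenes (GENCODE v29). Those with an overlap on the opposite strand include ACAT2, FDPS, SREBF1, MVK, IDI1, CYP51A1 and STARD4, whose values may hold reads of the other gene. K562 depth was estimated from the value of 1 read. For SIGM5, edgeR 4.0.16 was run on the counts (TMM scaling, filterByExpr, robust quasi-likelihood fit). For K562, log2(FPKM + 1) entered limma 3.58.1 with trend and robust settings, in 1 fit of 5 groups, for genes that reached 1 FPKM in 2 or more libraries, after leaving out 2269 short-RNA entries and 26 named by a number. The pseudocount understates the change of low genes. All p-values are two-sided and were adjusted by Benjamini-Hochberg over every gene of a comparison, with 0.05 as the threshold. The line difference used Satterthwaite degrees of freedom. Same-numbered replicates were checked for pairing (correlation of deviations -0.022 to 0.052 in K562 and -0.235 in SIGM5) and fitted unpaired. In K01 all 29 genes are accounted for: those called under TETi76 or between the clones, and the SREBP regulators, by library, and the rest by range. In SIGM5 and K18 the values of GGPS1, MSMO1, NSDHL, HSD17B7 and SC5D are not given by library. At most 3 called genes of each other list are named. The members and lists were chosen with earlier results of these data known. Promoters came from RefSeq (GRCh38.p14), and FDFT1, SQLE and ACAT2 had no entry. Scripts were tested on simulated data. A result of 1 other list is not reported here.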

Additional observations from a re-analysis of the deposited data

Results flagged for a closer look

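The 5 results here are listed because an effect of the same contrast differed between groups by a test of the difference itself. The 4 between the lines are 13.8% of the 29 genes, near the 12% of all genes tested in both lines. The 1 within K01 is 3.45% of the 29, beside 0.63% of all genes. Between the lines, the TETi76 change in K01 minus that in SIGM5 was -0.69 on the log2 scale for SREBF1 (SE 0.14, adjusted p = 0.0013), 0.73 for MYLIP (SE 0.18, adjusted p = 0.0056), 0.81 for PMVK (SE 0.21, adjusted p = 0.0175) and -0.50 for LBR (SE 0.15, adjusted p = 0.0261). Within K01, the TETi76 change of LSS was lower with ascorbate than without by a log2 difference of -0.82 (SE 0.13, adjusted p = 0.0335). Under 12 settings of the line difference, the call of SREBF1 was lost in 0, that of MYLIP in 1 and those of PMVK and LBR in 4 each. The LSS call was lost in 11 of 14 settings.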

How the results depend on the processing

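Direction was followed for those of the 29 genes with an unadjusted p under 0.05 and for called genes of the other lists. None of these reversed under any alternative. Changes of the remaining genes, such as IDI1 under TETi76 alone, were not followed and may change sign. The number of the 29 genes called was 19 in K01 under TETi76 and 11 to 13 with 1 library left out, 14 after quantile normalization. With ascorbate in both arms it was 20, and 18 to 20 under each alternative. In SIGM5 it was 4, ranging from 1 to 10 with 1 library left out. In K18 it was 9, ranging from 4 to 7, and for the line difference 4, ranging from 1 to 8. The single calls for ascorbate alone, ascorbate added to TETi76 and the interaction were 0 with any 1 library left out (from 0 to 0) and 0 in a fit of only the groups compared, and the last pair were also 0 with no filter on low FPKM (adjusted p = 0.0651 for SREBF1 and 0.0548 for LSS) and 0 with the replicate block (0.0781 and 0.0649). The cause was not tested. With the replicate number as a block, the counts were 3 in SIGM5 (FDFT1 lost, adjusted p = 0.0943), 20 in K01, 10 in K18 and 5 for the line difference. The correlation of same-numbered SIGM5 libraries was -0.235, and the crossed pairing, tried after seeing the data, gave 13. Over all genes, SIGM5 calls numbered 468 and ranged from 110 to 1291, and K01 calls numbered 2921 and ranged from 1669 to 2871, below it under every alternative. With 2 libraries a group and K562 depths of 4.66 to 8.89 M reads (M, mega), changes of low genes such as INSIG2, SC5D and MBTPS2 were not detectable unless large. Leaving out a library leaves 1 in its group, assumed to vary like the other groups.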
